A study of Mus musculus with 10 samples.

Results

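Ranbp2, Nup98 and Ipo9 encode 2 components of the nuclear pore and 1 import receptor, and together they held 5 of the 1626 ACA sites for which a cleavage efficiency was deposited. The members are all listed sites whose 11-base sequence occurs in a transcript of 1 of these 3 genes, on the same chromosome and strand and within 100 nt of the deposited transcript position. Ranbp2 had 3 sites, and Nup98 and Ipo9 had 1 each. The genes were picked because sites in them differed widely between genotypes, so their efficiencies are given as a description, with no test.

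The labels describe 10 polyA RNA libraries from mouse cells in 4 groups. Embryonic stem cells (ESC) gave 3 wild-type (WT) and 3 knockout (KO) libraries, and embryoid bodies (EB) gave 2 of each. The genotypes are WT and Metll3-/- in the labels, titled METTL3 KO, and are read here as Mettl3 knockout. The ESC were expanded on inactivated feeder fibroblasts and then passaged on gelatin without serum, with LIF and the inhibitors CHIR99021 and PD0325901. The EB are aggregates grown from them for 9 days in suspension with serum and without those factors. No source used here gives the deletion, the number of clones or the strain. Each group has 1 deposited value per site, from 0 for no cutting to 1 for complete cutting, so no value has a replicate error and no p-value could be computed. The reads behind each fraction are unknown. The table has no expression values and 0 of its named sites lay in Mettl3, so neither the knockout nor the cell types could be checked against marker genes.

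As background, the nuclear pore complex is the gate between nucleus and cytoplasm, and import receptors of the importin family carry proteins through it under the control of the small GTPase Ran. Ranbp2 (also called Nup358) is a very large protein of the cytoplasmic filaments of the pore that binds Ran and acts in SUMO transfer. Nup98 is a mobile nucleoporin with repeats that help to form the permeability barrier, and its gene also encodes Nup96 through a longer precursor. Ipo9 is an importin whose cargoes include histones and actin. Mettl3 is the methyltransferase that places most N6-methyladenosine (m6A) in messenger RNA. The bacterial RNase MazF cuts at ACA and is blocked by m6A on the first A, so in such an assay lower cutting goes with more methylation. No label used here names the enzyme.

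The 5 sites are shown in the sequence of their transcripts, because the sites with large and small differences between genotypes differ in the base before the shared GGACA. Each window is from GENCODE M21, 5′ to 3′, with GGACA in capitals, whose A before the C is the first A of ACA. The Ipo9 window is shorter because that site is in a 3′ UTR.
Ranbp2 site 1: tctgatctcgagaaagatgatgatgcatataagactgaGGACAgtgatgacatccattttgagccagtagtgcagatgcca
Ranbp2 site 2: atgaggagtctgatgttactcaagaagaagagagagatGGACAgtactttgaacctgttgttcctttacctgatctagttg
Ranbp2 site 3: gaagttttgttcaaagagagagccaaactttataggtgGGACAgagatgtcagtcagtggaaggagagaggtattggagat
Nup98 site 1: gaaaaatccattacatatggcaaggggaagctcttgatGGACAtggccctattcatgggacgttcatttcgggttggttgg
Ipo9 site 1: ccgtcggcctGGACAgtgatactga

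All 5 sites were GGACA, the pentamer of 1016 of the 1626 listed sites (62.5%), and none was AGACA, the pentamer of the rest. Site 2 of Ranbp2 and the Nup98 site shared the 8 bases GATGGACA, which 41 listed sites (2.52%) hold. The sites of Ranbp2 (site 2), Nup98 and Ipo9 all had T before GGACA, as did 355 listed sites (21.8%). Ranbp2 site 1 had A there and site 3 had G. A G follows GGACA at all 3 Ranbp2 sites and at the Ipo9 site, as at 387 listed sites (23.8%), and a T follows it in Nup98. Motifs were read on the transcript strand alone. The 31 bases around each site occurred in transcripts of no other gene of the annotation.

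The positions that follow are those of the A in the deposited table, in mm9. Ranbp2 site 1 is at chr10:57941738 and site 2 at chr10:57942639, both on the plus strand and 901 nt apart in exon 20 of 29. This exon of the coding sequence is 4663 nt long, longer than the exons of 94.6% of the 1423 named sites. Site 1 was 1829 nt and site 2 was 928 nt from the nearest exon junction, against a median of 205 nt over named sites. Site 3, at chr10:57955229, was 1886 nt farther along the transcript in the coding exon 27, which is 274 nt long, and only 70 nt from a junction. The Nup98 site, at chr7:109283240 on the minus strand, was in the coding part of the last of 23 exons of the matched shorter transcript, 163 nt before the end of the coding sequence and 267 nt from a junction. In the longest annotated transcript the same base was in exon 23 of 33 and 2050 nt before the end of the coding sequence. The nearest junction there was 162 nt away, and the distance of 267 nt used below is that of the matched transcript. The Ipo9 site, at chr1:137281823 on the minus strand, was in the 3′ UTR in the last of 24 exons, 124 nt after the last coding base and 231 nt from a junction. The 3 transcripts contain 35 GGACA and 23 AGACA, of which 5 and 0 are listed. The sites listed are therefore a small part of the possible ones, and no source used here says how they were chosen.

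**Figure D1:**
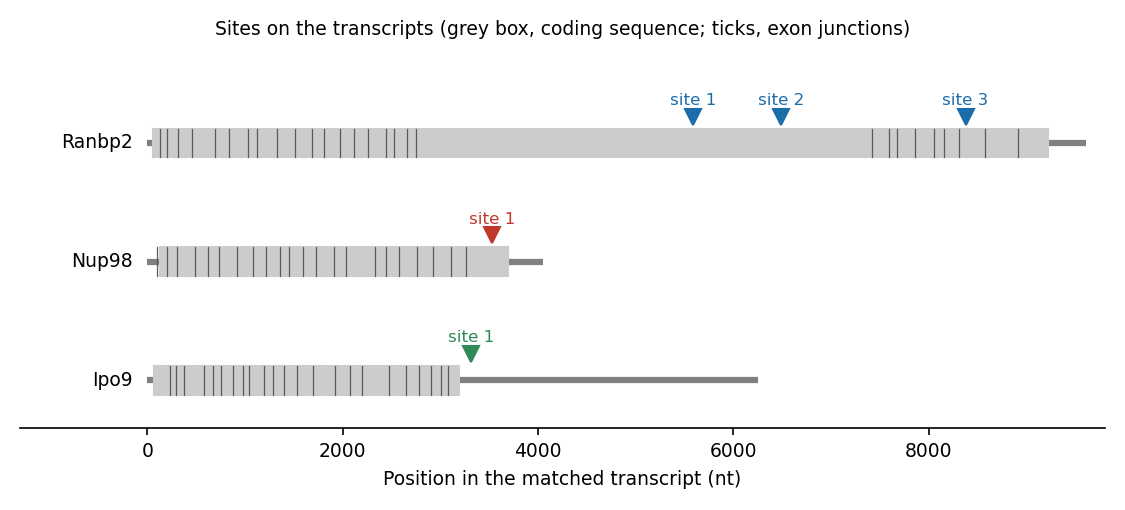
Position in the matched transcript (nt) of the 5 sites of Ranbp2, Nup98 and Ipo9, with the coding sequence as a grey box, the UTRs as a line and exon junctions as ticks. Ranbp2 sites 1 and 2 share the 4663-nt exon 20, while site 3 is among short exons, 70 nt from a junction.

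The site of Nup98 was almost uncut in WT and mostly cut in KO. In ESC its cleavage efficiency was 0.0182 in WT and 0.871 in KO, and in EB it was 0.0341 in WT and 0.756 in KO. Both WT values were far below both KO values. The difference, KO minus WT, was 0.852 in ESC and 0.721 in EB. These differences rank 14 of 1046 sites in ESC and 35 of 855 in EB. In WT, 6.28% of the ESC values in the table and 7.65% of the EB values were lower than those of Nup98.

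At the Ipo9 site too, both KO values were far above both WT values. In ESC its efficiency was 0.0833 in WT and 0.857 in KO, and in EB it was 0.0579 in WT and 0.839 in KO. The differences of 0.774 in ESC and 0.781 in EB were nearly equal, 0.00762 apart. Its KO values were close to the medians of their columns, 0.811 for ESC and 0.819 for EB, and its WT values far below theirs, 0.437 for ESC and 0.542 for EB. The distance between genotypes at this site thus lay in the low WT values and not in unusually high KO values.

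In Ranbp2 the 3 sites did not behave alike. Site 2 was at 0.0862 in WT and 0.864 in KO in ESC. In EB it was at 0.0588 in WT and 0.935 in KO, the highest member value. Its difference was 0.777 in ESC and 0.877 in EB, where it ranks 2 of 855 sites. Site 3, in the same transcript, was at 0.495 in WT and 0.373 in KO in ESC, and at 0.321 in WT and 0.528 in KO in EB. Here the ranges of WT and KO overlap, and KO was lower than WT in ESC (−0.121) and higher in EB (0.207). Site 1 was at 0.284 in ESC WT and 0.310 in EB WT, between the other sites, and no KO value is given. It is 1 of 112 sites with both WT values and no KO value.

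**Figure D2:**
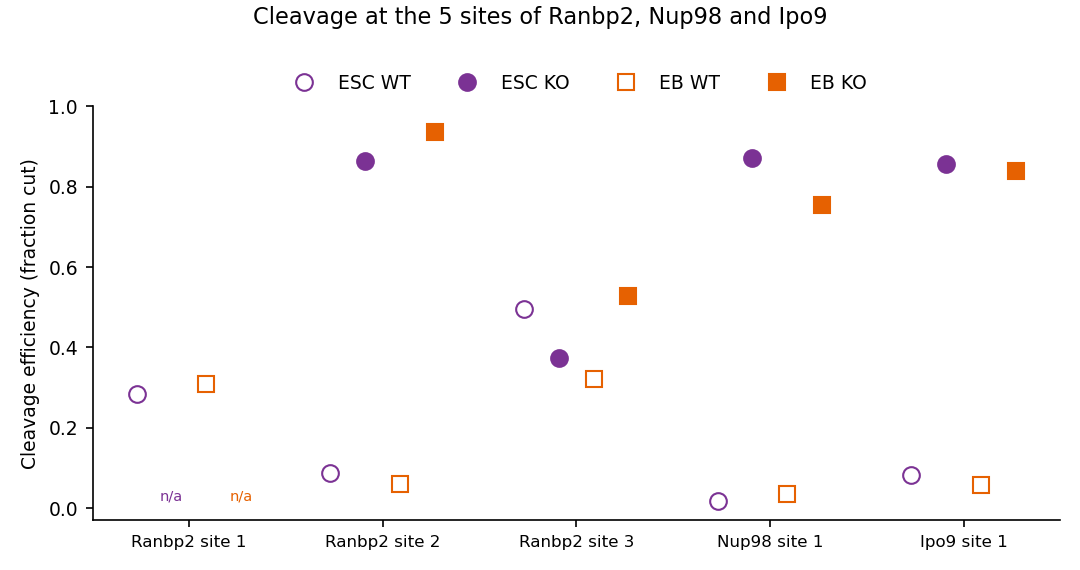
Deposited cleavage efficiency (fraction cut) at each site of Ranbp2, Nup98 and Ipo9 in ESC (circles) and EB (squares), WT open and KO filled; each point is 1 deposited value and n/a marks a group with no value. At Ranbp2 site 2, Nup98 and Ipo9 the WT points are below 0.1 and the KO points above 0.75, while the 4 points of Ranbp2 site 3 lie between 0.321 and 0.528.

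The comparison of KO with WT asks where cutting was lower in the presence of Mettl3. In ESC, 3 of the 4 member sites with a pair of values were at least 0.10 higher in KO, beside 55.4% of all 1046 sites, and 1 was lower by that size, beside 2.58%. In EB all 4 were higher, beside 41.9% of 855 sites, and none was lower, beside 5.96%. Because the members were selected on these differences, nothing is read from their counts. The median over all sites was 0.130 in ESC and 0.0638 in EB, and over the 4 members 0.776 and 0.751. As a yardstick of size, 95% of all sites differed by at most 0.166 between ESC and EB within KO, a spread made up of measurement error and of any change between stages. The differences at Nup98, Ipo9 and Ranbp2 site 2 exceed it in both stages. Their selection on these differences made that likely beforehand, so it is a description of size alone. Within WT the same measure was 0.229, which those differences exceed as well. At Ranbp2 site 3 the difference in ESC is smaller than both sizes, and that in EB is larger than 0.166 and smaller than 0.229.

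The columns differ in level: the median over the 759 sites with all 4 values was higher in KO than in WT by 0.373 in ESC and by 0.266 in EB. These are differences of column medians. The median of the site-by-site differences was smaller, 0.130 over 1046 sites in ESC and 0.0638 over 855 in EB. With the differences of column medians subtracted, the differences at Nup98, Ipo9 and Ranbp2 site 2 were still positive. The EB difference at Ranbp2 site 3 became −0.0591, while as deposited (0.207) it was above the site-by-site median. Its direction in EB thus depends on this scaling.

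**Figure D3:**
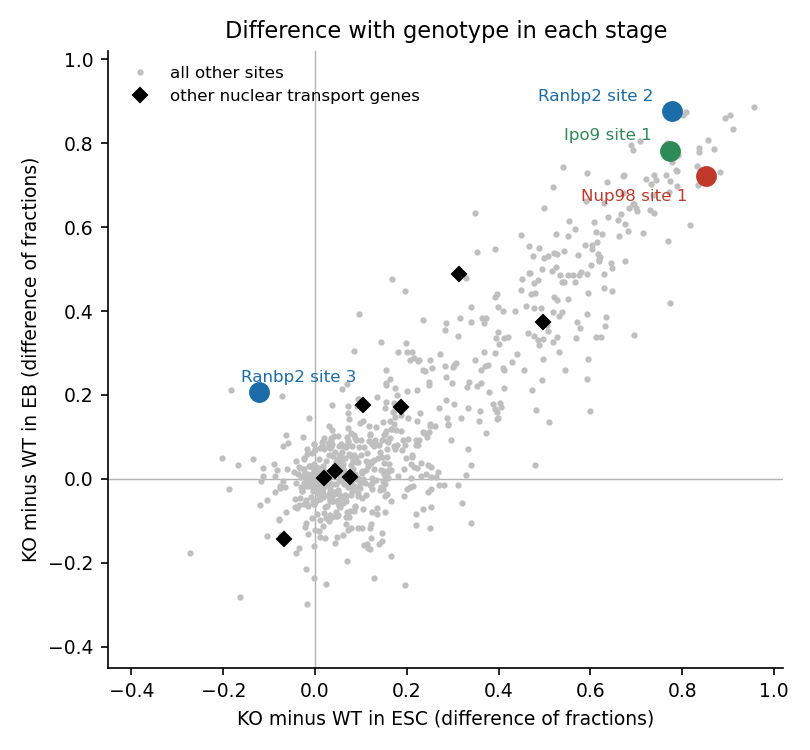
KO minus WT cleavage efficiency (difference of fractions) in ESC on the horizontal axis and in EB on the vertical axis for the 759 sites with all 4 values, with Ranbp2 in blue, Nup98 in red, Ipo9 in green and other nuclear transport genes as black diamonds. Ranbp2 site 2, Nup98 and Ipo9 are at the upper right end; Ranbp2 site 3 is at −0.121 in ESC and 0.207 in EB as deposited, and its EB value turns to −0.0591 when column medians are subtracted.

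Values of at most 0.1 in both WT columns with at least 0.75 in both KO columns were found at 15 of the 759 complete sites, and 3 of these 15 were the sites of Nup98, Ipo9 and Ranbp2 (site 2). These limits were set around the member values after those were seen. Of the 12 such sites in other genes, 6 had the sequence TGGACA, which 158 of the 755 complete sites of other genes hold, and 7 belonged to the deposited class CellRep_high. That class also holds the 3 members, while Ranbp2 site 1 is in CellRep_intermediate and site 3 in the class called highest. No source used here says how the classes were made. Site 3 has the smallest ESC difference of the members in the class with the largest median: over the other 67 sites of the highest class it was 0.411 in ESC.

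Ranbp2 sites 2 and 3 were singled out in the choice of members because they behave differently, so the spread within this gene is a description and its rank no finding. Of 90 genes with at least 2 sites with both ESC values, the median distance between a gene's largest and smallest difference was 0.170 (quartiles 0.0880 to 0.372), and that of Ranbp2 was 0.899. Next was Rrbp1, a ribosome-binding protein of the endoplasmic reticulum, with 0.897. In EB the distance in Ranbp2 was 0.669, and 7 of 62 genes, Ranbp2 included, had one as large. Differences of at least 0.10 in opposite directions within 1 gene were seen in 5 of the 90 genes in ESC and in 1 of the 62 in EB. A lower value in ESC KO and a higher one in EB KO, both by at least 0.10, occurred at 2 of the 759 complete sites, Ranbp2 site 3 and a site of Pmf1, a kinetochore protein gene. The Pmf1 site was at 0.644 in WT and 0.462 in KO in ESC, and at 0.551 in WT and 0.762 in KO in EB.

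The features in which the members differ also went with the size of the difference over the other genes. These sets were chosen after the member sequences were seen, leave the members out, and are described without a test. GGACA sites after T had a median KO minus WT of 0.303 in ESC (216 sites), those after A 0.188 (215 sites), those after C 0.137 (66 sites) and those after G 0.112 (150 sites). In EB the medians in the same order were 0.265, 0.118, 0.0738 and 0.0185. The bases of Nup98, Ipo9 and Ranbp2 site 2 are thus those of the set with the highest median, and the base of Ranbp2 site 3 that of the set with the lowest. The 26 other GATGGACA sites with ESC values had a median of 0.439 (quartiles 0.116 to 0.679), and the 18 with EB values had 0.300 (0.0455 to 0.594). The ESC difference of 0.852 at Nup98 and that of 0.777 at Ranbp2 site 2 were above the upper quartile of that set. Both sites were selected for wide differences, which made this likely beforehand, so it is a description alone. GGACA followed by T, as in Nup98, had a median of 0.352 in ESC, followed by C 0.269 and followed by A 0.158. Followed by G, as at the other members, it had the lowest median, 0.123. By the following base, Ranbp2 site 2 and Ipo9 with their large differences are thus in the set with the lowest median.

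Distance from an exon junction went with the difference as well. Other GGACA sites over 100 nt from a junction had a median of 0.328 in ESC (381 sites) and 0.225 in EB (311 sites). Those within 100 nt had 0.0602 (162 sites) and 0.00355 (134 sites). Ranbp2 site 3 is the single member in the near set. Its EB difference of 0.207 was above that set's upper quartile of 0.0839, and its ESC difference of −0.121 below the lower quartile of 0.0105. This site was singled out for behaving differently, so its place in the set is a description alone. Among TGGACA sites over 100 nt from a junction, the set of Nup98, Ipo9 and Ranbp2 site 2, 111 of 129 were higher in ESC KO by at least 0.10 and 51 by at least 0.5. In EB these counts were 88 and 37 of 113. At that distance the gap between T and A before GGACA was narrower in ESC, with medians of 0.399 and 0.349, and 43 of 125 sites after A were higher by at least 0.5. In EB the medians were 0.335 and 0.215. Base and distance were not varied independently of region or gene, and their part in the member differences was not tested.

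**Figure D4:**
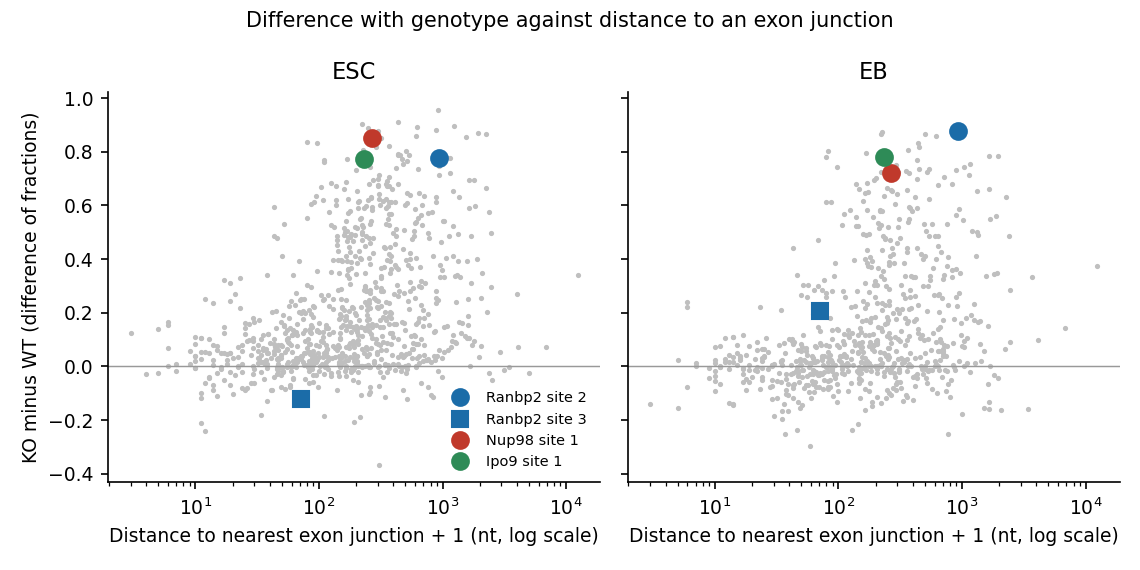
KO minus WT cleavage efficiency (difference of fractions) against the distance of the site to the nearest exon junction (nt plus 1, log axis) in ESC and EB, with 1 grey point per site of another gene and the members in colour (Ranbp2 blue, with site 3 as a square, Nup98 red, Ipo9 green). Members 231 to 928 nt from a junction of the matched transcript are near the top in both panels. The square, 70 nt from a junction, is below 0 in ESC and at 0.207 in EB.

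A further ACA close by can be cut too. The next ACA was 9 nt after Ranbp2 site 1 and 12 nt after the Ipo9 site, nearer than at most named sites, whose median distance to the closest other ACA was 35 nt (quartiles 16 to 64). For Nup98 it was 28 nt before the site, and for Ranbp2 sites 2 and 3 it was 66 and 59 nt after. The Ipo9 site with a near ACA and Ranbp2 site 2 without one had ESC differences of 0.774 and 0.777. Both were selected for large differences, and the part of a near ACA was not tested. Over other genes, sites with another ACA within 20 nt had a median of 0.156 in ESC and the rest 0.125.

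The comparison of EB with ESC asks whether cutting changed with differentiation. In WT none of the 5 member sites was higher in EB by at least 0.10, beside 26.4% of 1071 sites, and 1 was lower, Ranbp2 site 3, beside 5.51%. The median difference, EB minus ESC, was 0.0408 over all sites. It was 0.0259 at Ranbp2 site 1, −0.0274 at site 2, −0.174 at site 3, 0.0159 at Nup98 and −0.0255 at Ipo9. In WT the 3 nearly uncut sites of Nup98, Ipo9 and Ranbp2 (site 2) thus differed between the stages by less than the yardstick of 0.166. Their ESC WT values were at most 0.0862, so a fall of 0.166 was not possible, and no stability is read from this. With column medians subtracted, which takes off 0.0963, Ranbp2 site 1 moved to −0.0704 and Nup98 to −0.0804.

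In KO 1 of 4 members was higher in EB by at least 0.10, beside 7.1% of 845 sites, and 1 was lower, beside 11.1%. Ranbp2 site 3 was 0.155 higher and Nup98 0.115 lower, ranks 28 and 780 from the top of the 845 sites. The size of 0.166 was taken from this same comparison, so it was not applied here. Ranbp2 site 2 differed by 0.0718 and Ipo9 by −0.0179. The difference of the knockout effect, EB minus ESC, asks whether the dependence on Mettl3 changed. It was 0.329 at Ranbp2 site 3, rank 2 from the top of 759 sites. At site 2 it was 0.0992, at Ipo9 0.00762 and at Nup98 −0.131. Site 3 was singled out for behaving differently, so its ranks here are a description and no finding. By at least 0.10, 1 of 4 members was higher, beside 5.53% of the 759 sites, and 1 lower, beside 32%. For Nup98 the smaller effect in EB came with both a lower KO value and a slightly higher WT value than in ESC.

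The sites most like each member were those with the smallest root mean square difference over the groups, among 882 or 883 sites of other genes with at least 3 shared groups. Closest to Ranbp2 site 2 were sites of Golph3, a Golgi protein gene (0.0168 over 4 groups), Nol9 (0.0241 over 3) and the ubiquitin ligase gene Rbbp6 (0.0282 over 4). Closest to Nup98 were Tmem30a, a lipid flippase subunit gene (0.0198 over 3), the m6A reader gene Ythdf1 (0.0199 over 3) and Mga, a transcription factor gene (0.0333 over 4). Closest to Ipo9 were the same Nol9 site (0.0201 over 3), Rbbp5, a subunit of histone methyltransferase complexes (0.0314 over 4), and the sulfatase gene Sulf2 (0.0315 over 4). Ranbp2 site 3 had more distant neighbours, Mtmr3 (0.0433 over 3), Klf13 (0.0892 over 3) and Ifitm3 (0.0953 over 4).

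At no listed site of another nuclear transport gene with both values was the difference as large as at Nup98, Ipo9 and Ranbp2 site 2. Those genes were picked for wide differences, so this order follows from the choice. The largest in the other genes was 0.497 in ESC and 0.488 in EB, both in Ranbp3. The list of nucleoporins, transport receptors with the Ran cycle, and mRNA export factors had 88 genes in the annotation, of which 17 had 25 named sites. Without the members, 5 of 13 sites were higher in ESC KO by at least 0.10 and 1 lower, with a median of 0.0434. In EB 4 of 8 were higher and 1 lower, with a median of 0.0948. The list was chosen with earlier results of these data known, and its shares of 5 of 13 and 4 of 8 are read beside the 55.4% and 41.9% of all sites.

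Among the other nucleoporins, 1 of 3 sites reached 0.10 upward in ESC and 1 of 2 reached it downward in EB. Nup214, a partner of the pore's cytoplasmic face, had a coding site listed at 0 in ESC WT, at 0.171 in ESC KO and at 0.0250 in EB WT, with no EB KO value. Pom121, a membrane nucleoporin, had a coding site listed at 0 in ESC WT and at 0.0755 in ESC KO, and at 0.0702 and 0.0755 in EB. Both sites were GGACA after T, in exons of 1767 and 1617 nt and over 100 nt from a junction, like the large-difference members, yet were little cut in KO as well. At a site of Ndc1, another membrane nucleoporin, 13 nt from a junction, KO minus WT was −0.0677 in ESC and −0.144 in EB.

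Among transport receptors and the Ran cycle, Ranbp3, a cofactor of nuclear export, had 2 sites in its 3′ UTR. The first was at 0.574 in WT and 0.889 in KO in ESC, and at 0.452 in WT and 0.939 in KO in EB. The second was at 0.364 in WT and 0.861 in KO in ESC, and at 0.483 in WT and 0.857 in KO in EB. All 4 KO values were above all 4 WT values, by smaller distances than at Ipo9. Tnpo1, transportin 1, was 0.188 higher in ESC KO and 0.171 in EB. Ipo8 had a 3′ UTR site 0.104 higher in ESC KO and 0.176 in EB, while KO minus WT in ESC was −0.0890 and −0.103 at its 2 sites in the 5′ UTR. Ipo11 differed by −0.0272 in ESC. Sites of Kpna4, Kpna6 and Snupn had no KO value.

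Of the mRNA export genes, 0 of 3 sites in ESC and 0 of 2 in EB reached 0.10 in either direction. Alyref differed by 0.0389 in ESC, and Ddx39b by 0.0207 in ESC and 0.00229 in EB. Zc3h11a had a coding site with 0.0434 and 0.0189, and a 3′ UTR site at 0.0250 in ESC WT and listed at 0 in EB WT with no KO value. The 2 sites of Thoc2 had an ESC WT value alone, 0.405 and 0.868.

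**Figure D5:**
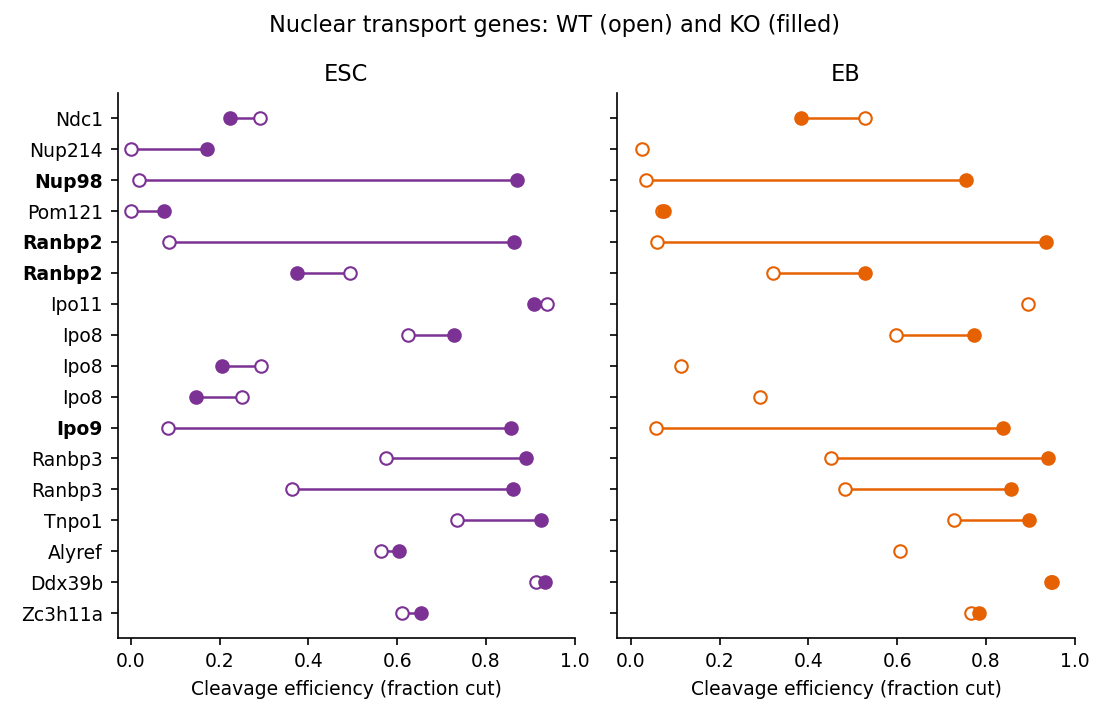
Cleavage efficiency (fraction cut) in WT (open) and KO (filled) at each site of the nuclear transport list with a KO minus WT value, with ESC in the left panel and EB in the right; rows are sites, a gene with several sites has several rows, and members are in bold. The longest lines are those of Nup98, Ranbp2 site 2 and Ipo9, followed by Ranbp3; at Ranbp2 site 3 the filled point is left of the open one in ESC and right of it in EB.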

How the data were processed

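The authors deposited 1 table for the series. Per the file headers and the values, it holds cleavage efficiencies as a fraction, 1 for each group at each site, beside position, strand, 11-base sequence, transcript position and class. The submitters' processing notes name STAR 2.5.3a, bedtools 2.26.0 and mm9 without saying what each was for. Read counting and the treatment of replicates are not given in the sources used, so depth is unknown. The table held 0 value columns of no group.

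Sites were matched to GENCODE M21 (GRCm38) transcripts by sequence (the A of ACA is base 6), chromosome, strand, transcript position within 100 nt, genome position within 10 Mb, and a shift between builds shared with another gene among 3 neighbours on either side. Of 1626 sites 1423 were named, in 1232 genes, all on the deposited strand. Before the neighbour rule, 1473 sites matched a single gene. A separate search that required the opposite strand instead, also before that rule, matched 54 sites. No coordinate was converted.

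Differences were taken site by site and counted from 0.10, a size and not a test. Named were all sites of the 3 genes and of the transport list, and for each member the 3 most similar sites. The members and lists were chosen with earlier results of these data known. Alternatives were a log2 odds scale (limits 0.01 and 0.99, counted from 1, a size set after seeing the data), subtraction of column medians, percentile ranks, a size of 0.20, a match within 20 nt, a KO value of at least 0.20 and the mean. Python 3.11.15 with pandas 2.3.3 and numpy 2.4.6 was used.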

Additional observations from a re-analysis of the deposited data

Results flagged for a closer look

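Ranbp2 site 3 was flagged because its KO minus WT difference had opposite signs in the 2 stages, −0.121 in ESC and 0.207 in EB. The difference between them was 0.329. It rests on 4 single values and was not tested. The site was already named as behaving differently in the choice of members. Its EB difference turned to −0.0591 with column medians subtracted and to −0.0619 with percentile ranks.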

How the results depend on the processing

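No paired analysis was possible because each group has 1 deposited column and the replicate numbers of the libraries have no values; leaving out replicates was not run for the same reason. With 1 value per group and unknown depth, no difference has an error. Member counts of sites higher in KO were 3 of 4 in ESC under every alternative run, and 4 of 4 in EB, or 3 of 4 with column medians subtracted or percentile ranks. Beside them stand 55.4% of all sites in ESC and 41.9% in EB as deposited, with no shares given for the alternatives. The members were selected on these differences, so nothing is read from these counts or from their stability. The count of 1 site lower in ESC KO became 0 on the log2 odds scale and at a size of 0.20. For EB minus ESC in WT, the 1 lower site became 3 with column medians subtracted and 0 at 0.20. The subtraction took 0.0963 off every site alike, which moved Ranbp2 site 2 to −0.124 and Ipo9 to −0.122. For all the counts in this paragraph, no share over all sites is given under the alternatives, so nothing is read from their changes. In KO the 1 higher and 1 lower site both became 0 at 0.20. For the difference of the knockout effect, the 1 higher site became 2 on the log2 odds scale and with percentile ranks, and 3 with column medians subtracted; the 1 lower site became 0 with column medians subtracted and at 0.20. The EB difference at Ranbp2 site 3 reversed to −0.0591 with column medians subtracted and −0.0619 with percentile ranks. For EB minus ESC in WT, Ranbp2 site 1 (−0.0704) and Nup98 (−0.0804) reversed with column medians subtracted. A match within 20 nt found 2 of the 5 members, since the deposited Ranbp2 positions differ by 70 nt from those of the annotated transcript. The transport list, members included, had a median KO minus WT of 0.0755 in ESC and 0.191 in EB. The mean was 0.203 and 0.307; the median was 0.0736 and 0.207 with KO values of at least 0.20, and −0.298 and −0.0750 with column medians subtracted, an alternative added after seeing the data.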
